A study of Mus musculus with 2 samples.

Results

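The genes described here are those of the translation initiation factors (eIF) and elongation factors (eEF), taken by name as every gene whose symbol begins with Eif or Eef. The rule also takes in Eif2c5, a lincRNA by annotation that encodes no translation factor. Eif2ak2, Eif2s3y and pseudogenes ending in -ps were left out, and no filter on level was set. This gave 67 of the 43346 genes listed in both gene tables. They comprised 5 genes of eIF1, 8 of eIF2 with its kinases, 5 of eIF2B, 14 of eIF3, 16 of eIF4 with its binding proteins, 4 of eIF5, 1 of eIF6, 9 of eEF1, 3 of eEF2 and 2 others. RNA with poly(A) tails was sequenced from mouse megakaryocytes, the large blood cells that shed platelets, in 2 libraries of 1 group. They were primary cells from embryos of day 14.5, with males and females pooled, and the labels give no strain, genotype or treatment. Both libraries cite the same biosample and donor, so part of their spread may be technical. Without a second group there was nothing to test, and no p-value was computed.

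Initiation factors place the first tRNA and the small ribosomal subunit on the start codon of an mRNA. eIF1 and eIF1A guide start selection, eIF2 carries the initiator tRNA, eIF2B recharges eIF2 with GTP, eIF3 is the scaffold on the small subunit, and the eIF4 factors bind the cap and unwind the leader. eIF5 and eIF5B complete subunit joining, and eEF1 and eEF2 then deliver tRNAs and move the ribosome along the message. Megakaryocytes build a large cytoplasm, and the platelets they release carry mRNA and translate without a nucleus.

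Replicate 1 held 42099216 expected counts (estimated fragments per gene) and replicate 2 held 2275922, an 18.5-fold difference in depth. All 14 megakaryocyte markers examined reached a mean of 1 TPM (fragments per length, scaled to a fixed total), and their summed TPM was 17370 in replicate 1 and 24353 in replicate 2. They moved both ways between the libraries: by the scaled counts used below, 4 were at least 2-fold higher in replicate 2 and 3, Pf4, Ppbp and Tubb1, at least 2-fold lower. Macrophage markers reached that level for 7 of 11 genes and summed to 874 and 229 TPM, with Cd163 and Timd4 at 0 counts in both libraries. Granulocyte markers did so for 9 of 12 genes and summed to 863 and 150.2 TPM, with Ly6g at 0 in both. Erythroid markers did so for 6 of 9 genes and summed to 7083 and 13896 TPM, with no defining marker at 0 in both. The higher sum in replicate 2 came from Hba-a1 alone, since the other 8 genes summed to 2602 and 1180 TPM. The part of these cells in the values below was not tested. In bulk samples, fewer cells of a type and less RNA per cell cannot be told apart.

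A sequence pair sets the most abundant member, Eif5a, beside its paralog Eif5a2 at a site that their proteins share. eIF5A is the protein that carries hypusine, an amino acid made by modifying 1 lysine, and both genes encode that lysine at codon 50, shown in capitals within 51 bases of coding sequence (GRCm38, 5′ to 3′ on the coding strand). The codon lay at chr11:69919166-69919168 on the minus strand, in exon 3 of 7, for Eif5a, and at chr3:28782199-28782201 on the plus strand, in exon 2 of 5, for Eif5a2.
Eif5a: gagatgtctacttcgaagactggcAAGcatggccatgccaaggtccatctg
Eif5a2: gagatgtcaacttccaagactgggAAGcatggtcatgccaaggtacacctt
The windows differed at 7 bases, none of which changes the encoded amino acid. The whole coding sequences were 72.8% identical. Of the 50-base windows of the transcripts, 0% in Eif5a2 and 7.13% in Eif5a occurred in another gene.

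A second pair shows the start of mRNAs that begin with a pyrimidine run. mRNAs of ribosomal proteins and many translation factors are known to begin with a C followed by a run of C and T, the element through which mTOR signalling controls their translation. The search asked for a C at the RefSeq start (GRCm38.p6) followed by at least 4 bases that are each C or T, read on the gene's strand only, in the 25 bases from 5 before to 20 after the start. Such a start was found for 3 of the 51 members with an entry (5.88%), against 3.01% of 27025 genes and 23.0% of 61 ribosomal protein genes. The matching members were Eif3f, Eif2s3x and Eif2c5, and the runs of the expressed pair are in capitals.
Eif3f: gctctCTCTCTTTCTCggcaagatg
Eif2s3x: ttttcCTTTTCTCTCCgagcaagat
The windows lie at chr7:108934410-108934434 on the plus strand and chrX:94212632-94212656 on the minus strand, and each run is 11 bases long. With the run allowed to begin within 5 bases of the start, 14 members (27.5%) matched, against 21.2% of all genes and 47.5% of ribosomal protein genes. A match is a description of these letters, and annotated starts can be off by several bases.

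Nearly all translation factor genes were detected in these megakaryocytes, over a wide range of levels. A mean of at least 1 TPM was reached by 60 of the 67 genes, against 22.7% of all genes and 42.5% of protein coding genes, and 49 reached it in both libraries. Mean levels of 1000 TPM or more were seen for Eif5a and Eif4ebp1, 16 genes lay between 100 and 1000, 23 between 10 and 100, 19 between 1 and 10, and 4 below 1. Eif4e1b, Eef1a2 and Eif2c5 had no count in either library. An observed 0 is compatible with up to 3 counts, which is 0.0713 CPM (counts scaled to a common depth) for replicate 1 and 1.32 for replicate 2. All 67 genes together held 10577 TPM in replicate 1 and 9453 in replicate 2, or 1.06% and 0.945% of all TPM. The 10 members with the highest means took 68.8% of that in replicate 1 and 82.1% in replicate 2. The plot of levels by factor shows every gene in each library.

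**Figure D1:**
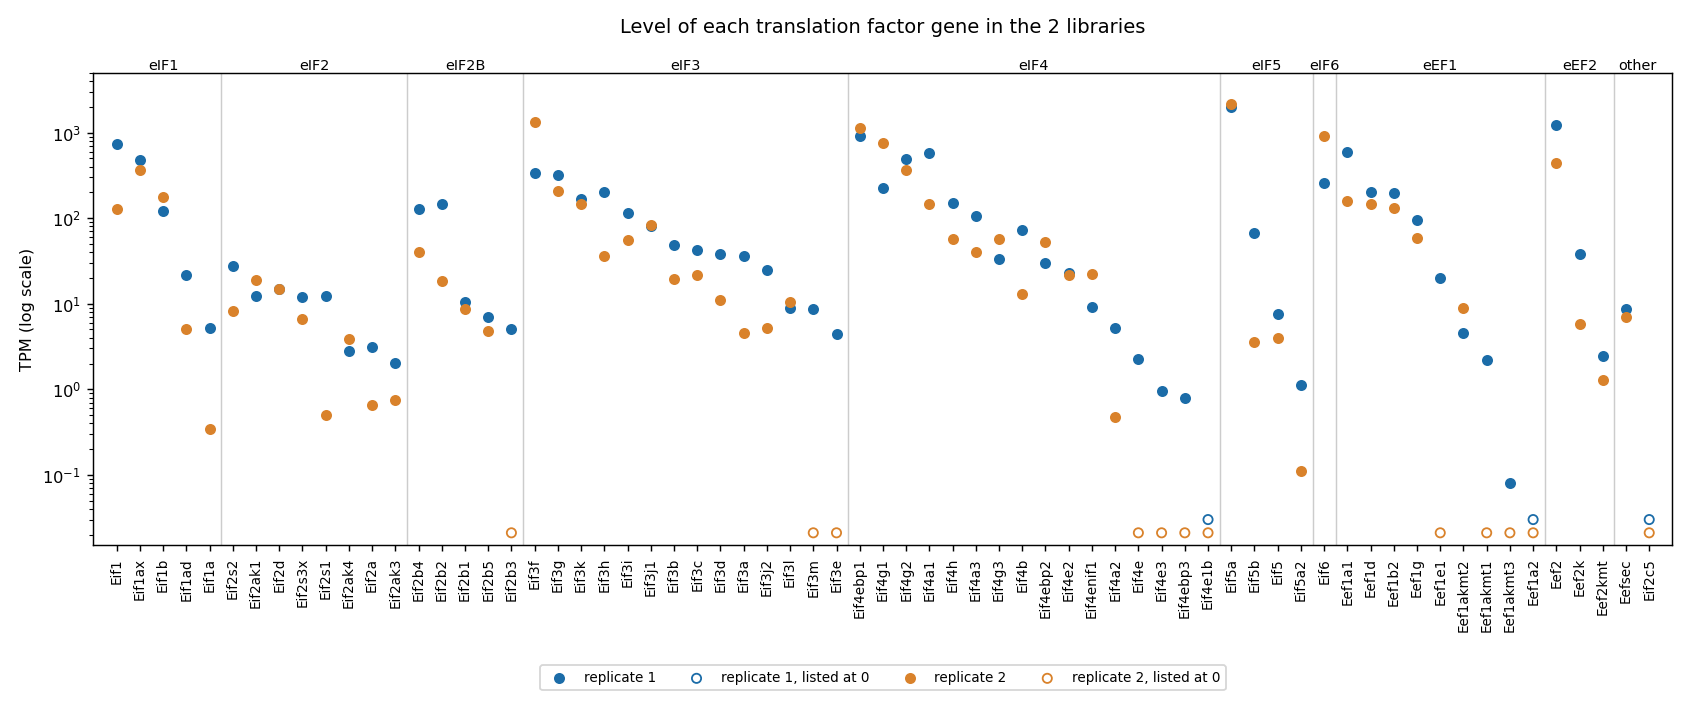
TPM of each of the 67 genes in replicate 1 (blue) and replicate 2 (orange) on a log axis, ordered by factor and by mean level within it; open circles at the bottom mark values listed at 0. Eif5a had 2003 and 2180 TPM, and 9 genes were listed at 0 in replicate 2 only.

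Genes named as initiation factors held most of the signal. Their summed level was close in the libraries, while that of genes named as elongation factors was not. The 53 initiation genes summed to 8177 TPM in replicate 1 and 8493 in replicate 2. The 12 eEF1 and eEF2 genes summed to 2392 and 953 TPM. Initiation genes thus took 77.3% of the members' TPM in replicate 1 and 89.8% in replicate 2, and elongation genes 22.6% and 10.1%. Ribosomal protein genes, given side by side, summed to 189599 and 83987 TPM. On counts scaled by TMM (a normalization that sets the libraries to a common level over many genes), the summed ratio of replicate 2 to replicate 1 was 1.12 for initiation genes, 0.447 for elongation genes, 0.547 for ribosomal protein genes and 1.36 for all genes summed. Scaled by total counts instead, which sets all genes to 1, it was 0.829 for initiation genes, 0.330 for elongation genes and 0.403 for ribosomal protein genes, so the direction for initiation genes depends on the scaling. Eif3f carried part of the initiation value: without it the initiation genes summed to 7838 and 7164 TPM, with a count ratio of 0.813. The grouping follows the names, so Eif5a (2003 and 2180 TPM) counts as initiation, although its protein is known chiefly for a step of elongation. The repressor gene Eif4ebp1 (923 and 1142 TPM) is counted there too. Sums with Eif5a placed among the elongation genes were not computed.

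**Figure D2:**
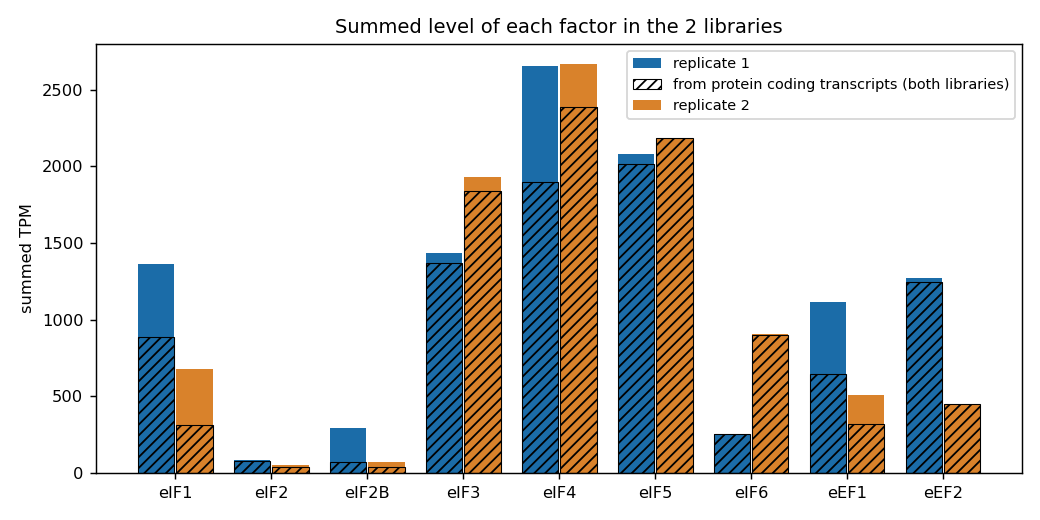
Summed TPM of each factor in replicate 1 (blue) and replicate 2 (orange), with the hatched part from transcripts annotated as protein coding. The eIF4 sums were nearly level (2654 and 2665 TPM) with opposite shifts among its genes, whereas eEF2 had 1275 and 447 TPM. eIF6 had 257 and 907 TPM, with a scaled count ratio of 2.10.

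By factor, eIF4 was highest at 2660 ± 7.53 TPM (mean ± SD of the summed TPM, n = 2), followed by eIF5 at 2134 ± 77.1 and eIF3 at 1684 ± 350 (SD, n = 2). eIF1 summed to 1020 ± 489 TPM, eEF2 to 861 ± 585, eEF1 to 811 ± 432, eIF6 to 582 ± 460, eIF2B to 184 ± 158 and eIF2 to 70.8 ± 23.4 (SD, n = 2). Neighbours in the order from eIF1 to eIF6 differed by less than these SDs. eIF2 with its kinases was lowest in both libraries, at 87.3 and 54.2 TPM. The steady sum of eIF5 was that of a single gene, since without Eif5a the factor fell from 75.9 to 7.64 TPM. That of eIF4 joined opposite shifts, with Eif4g1 going from 225 to 749 TPM and Eif4a1 from 582 to 148. By TMM the summed count ratio of eIF4 was 0.847, and by the deposited posterior mean TPM its sums were 2610 and 1984.

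Start selection factors of eIF1 were led by Eif1 and Eif1ax. Eif1, which keeps the scanning ribosome open until the start codon is met, had 739 TPM in replicate 1 and 127 in replicate 2, and its paralog Eif1b had 122 and 178. The more abundant of the 2 paralogs therefore differed between the libraries: Eif1 stood 6.04-fold above Eif1b in replicate 1 and at 0.715 of it in replicate 2. Their coding sequences were 81.1% identical, and 31.6% of the 50-base windows of Eif1 also occurred in other genes, which makes its value uncertain. Eif1ax, the X-linked eIF1A gene, had 477 and 365 TPM. Of this, 99.7% in replicate 1 and 100% in replicate 2 fell on Eif1ax-202, a retained intron form of 416 bases, so its level rests on a transcript that is not annotated as coding. Eif1a, the autosomal copy, had 5.25 and 0.34 TPM, the lowest of eIF1, and Eif1ad, a protein with an eIF1A domain, had 21.9 and 5.10.

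The subunits of eIF2, the GTPase that brings the initiator tRNA, were among the low members. Eif2s2, the beta subunit, had 27.6 TPM in replicate 1 and 8.19 in replicate 2. Eif2s3x, the X-linked gamma subunit whose start is printed above, had 12.1 and 6.61. Eif2s1, the alpha subunit that stress kinases phosphorylate, lies at chr12:78861819-78887010 (GRCm38) and had 12.5 and 0.5 TPM, from 1597 and 3 counts. Together the 3 subunits summed to 52.1 and 15.3 TPM, with a scaled count ratio of 0.321. As a sum, the kinases did not share this difference. Eif2ak1, the heme-regulated kinase, had 12.4 and 18.7 TPM, Eif2ak4, which senses uncharged tRNA, had 2.81 and 3.83, and Eif2ak3, the kinase of endoplasmic reticulum stress, was lowest of the factor on average with 2.05 and 0.74. Their summed count ratio was 1.35 by TMM and 0.993 by total counts. Eif2d, which can place the initiator tRNA without eIF2, was level at 14.9 and 15.0 TPM, and Eif2a had 3.08 and 0.66.

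eIF2B, the exchange factor for eIF2, was uneven across its subunits. Eif2b4 had 127 TPM in replicate 1 and 40.6 in replicate 2, and Eif2b2 had 146 and 18.5. Eif2b1 had 10.5 and 8.60 TPM, and Eif2b5, the catalytic subunit, 6.95 and 4.78. Eif2b3 had 5.11 TPM in replicate 1 and was listed at 0 in replicate 2. Short forms carried the high values: Eif2b2-206, a retained intron form of 338 bases, took 63.7% of the Eif2b2 TPM in replicate 1 and none in replicate 2. From coding transcripts alone the factor summed to 72.3 and 37.2 TPM instead of 296 and 72.4; the leading Eif2b4 forms had no type in the annotation used and were not counted as coding.

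Subunits of eIF3, which bind the small ribosomal subunit as 1 complex, were spread over more than 2 orders of magnitude. Eif3f (chr7:108934417-108942951, GRCm38), a subunit with an MPN domain, was highest at 338 TPM in replicate 1 and 1329 in replicate 2. Eif3g followed with 322 and 208 TPM, Eif3k with 167 and 146, and Eif3h with 201 and 36.0. Eif3f thus exceeded Eif3g 1.05-fold in replicate 1 and 6.40-fold in replicate 2. The core scaffold subunits were lower: Eif3a had 36.0 and 4.60 TPM, Eif3b 48.0 and 19.3, and Eif3c 42.7 and 21.5. Eif3f stood 9.39-fold above Eif3a in replicate 1 and 289-fold above it in replicate 2. Eif3i had 116 and 56.0 TPM, Eif3d 37.98 and 11, and Eif3l 8.98 and 10.5. Eif3e, the lowest subunit, had 4.39 TPM and Eif3m 8.67 in replicate 1, and both were listed at 0 in replicate 2. Genes that every dividing cell uses were thus among those at 0, so such a value does not show absence. Without Eif3f, the other 13 subunits summed to 1099 TPM in replicate 1 and 602 in replicate 2, with a count ratio of 0.504, whereas all 14 gave 2.00; by total counts these ratios were 0.372 and 1.48.

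Eif3j1 and Eif3j2, which encode the loosely bound j subunit, had 80.8 and 83.9 TPM and 24.98 and 5.17 TPM. Their coding sequences were 100% identical over 783 aligned bases, and 91.8% of Eif3j2 windows and 39.8% of Eif3j1 windows occurred in another gene. How the fragments were divided between them is therefore uncertain.

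Among the cap-binding and helicase factors, the mRNA of an inhibitor was far more abundant than that of the protein it binds. Eif4ebp1 (chr8:27260329-27276674), which encodes the 4E-BP1 repressor that mTOR releases from eIF4E, had 923 TPM in replicate 1 and 1142 in replicate 2. Eif4e, the cap-binding protein, had 2.27 TPM in replicate 1 and was listed at 0 in replicate 2. In replicate 1 the repressor mRNA was 406-fold above that of Eif4e. Of the other cap-binding relatives, Eif4e2 had 23.2 and 21.9 TPM, Eif4e3 had 0.95 and was then listed at 0, and the oocyte form Eif4e1b was not detected. Eif4ebp2 had 30.2 and 52.2 TPM, and Eif4ebp3 had 0.8 TPM in replicate 1 and was listed at 0 in replicate 2. Eif4enif1, which carries eIF4E into the nucleus, had 9.07 and 22.3 TPM, but 9.02 and 5.58 from its coding transcripts.

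The scaffold genes were all detected. Eif4g1, the main eIF4G, had 225 TPM in replicate 1 and 749 in replicate 2, although its scaled count ratio was 0.991. Eif4g2, a relative that lacks the eIF4E-binding region, had 491 and 361 TPM, and Eif4g3 had 33.4 and 56.9, although its scaled count ratio was lower, at 0.713 (95% interval 0.583 to 0.864). In the helicase family, Eif4a1 had 582 and 148 TPM and its paralog Eif4a2, with 77.6% identical coding sequence, had 5.15 and 0.47. Eif4a1 was 113-fold above Eif4a2 in replicate 1 and 316-fold above it in replicate 2, where Eif4a2 had only 2 counts. The gap depends on the estimate. By the deposited posterior mean TPM, Eif4a1 had 572 and 115 and Eif4a2 6.09 and 15.7. From coding transcripts, Eif4a1 had 47.0 and 5.08 TPM and Eif4a2 2.61 and 0.34. Coding transcripts gave only 8.07% and 3.42% of the Eif4a1 TPM, and 65.3% of its windows occurred in other genes. Eif4a3, the helicase of the exon junction complex, had 107 and 40.6 TPM. The helicase cofactors Eif4h and Eif4b had 149 and 57.0 TPM and 73.0 and 12.9 TPM.

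Among the genes named for eIF5 and eIF6, Eif5a (chr11:69916714-69921958, minus strand) stood highest and was also the most abundant of all 67. Its level was 2003 TPM in replicate 1 and 2180 in replicate 2 (2092 ± 125, SD, n = 2). eIF5A is today known chiefly for helping the ribosome through stretches of proline. It exceeded Eif5a2, at 1.13 and 0.11 TPM, 1773-fold in replicate 1; in replicate 2 Eif5a2 had a single count. The hypusine enzymes were both present, with deoxyhypusine synthase Dhps at 41.7 and 106 TPM and deoxyhypusine hydroxylase Dohh at 119 and 85.2. Eif5b, the GTPase of subunit joining, had 67.1 and 3.58 TPM, and Eif5, which triggers GTP hydrolysis on eIF2, had 7.64 and 3.95. Eif6 (chr2:155819832-155826925, minus strand), which keeps the large subunit from joining early, had 257 TPM in replicate 1 and 907 in replicate 2. Its scaled count ratio was smaller, at 2.10, as its effective length went from 500 to 250 bases with the share of a short form.

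The elongation factors were led by Eef2 and Eef1a1, and both were lower in replicate 2. Eef2 (chr10:81176631-81182498), the translocase, had 1234 TPM in replicate 1 and 439.9 in replicate 2, from 143398 and 2411 counts. Eef1a1 (chr9:78478449-78489151, minus strand), which delivers aminoacyl-tRNA, had 590.0 and 159 TPM. Its muscle and neuron paralog Eef1a2 was not detected in either library. Of the Eef1a1 windows, 59.2% occurred in other genes. The exchange complex that recharges eEF1A was more even: Eef1b2 had 199 and 132 TPM, Eef1d 205 and 146, and Eef1g, its structural subunit, 96.1 and 59.3. Eef2k, the kinase that inactivates eEF2, had 38.1 and 5.79 TPM with a scaled count ratio of 0.923. Eef1e1, a member of the tRNA synthetase complex, had 20.1 TPM in replicate 1 and was listed at 0 in replicate 2. The methyltransferases of eEF1A and eEF2 were low, from Eef1akmt2 at 4.59 and 8.92 TPM to Eef1akmt3, the lowest member with any count, at 0.08 TPM and then 0. Eef2kmt had 2.42 and 1.28 TPM, Eef1akmt1 had 2.22 and was then listed at 0, and the selenocysteine factor Eefsec had 8.72 and 7.02.

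More of these genes were lower than higher in replicate 2 when scaled counts were set against each other. A mean count of at least 100 was met by 58 of the 67 genes, mainly through the deeper replicate 1, a filter that favours lower values in replicate 2. A difference of at least 2-fold lower was seen for 26 of the 58 (44.8%), against 33.8% of all 8194 genes that met it. At least 2-fold higher were 2 genes, Eif3f and Eif6, against 15.7% of all genes; by total counts Eif3f had 3.42 and Eif6, no longer past the limit, 1.55. Another 30 lay between. The median log2 ratio was -0.76 for the members and -0.30 for all genes, so the members' median lay lower by this scale. With only counting error considered, the exact 95% interval (Clopper-Pearson) lay wholly below 0.5 for 20 members and wholly above 2 for 1, Eif3f. All of these are differences between 2 libraries and have no replicate check. In the same contrast, 7 of 7 macrophage and 7 of 7 granulocyte markers with enough counts were at least 2-fold lower in replicate 2, and 54 of 77 ribosomal protein genes were too.

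**Figure D3:**
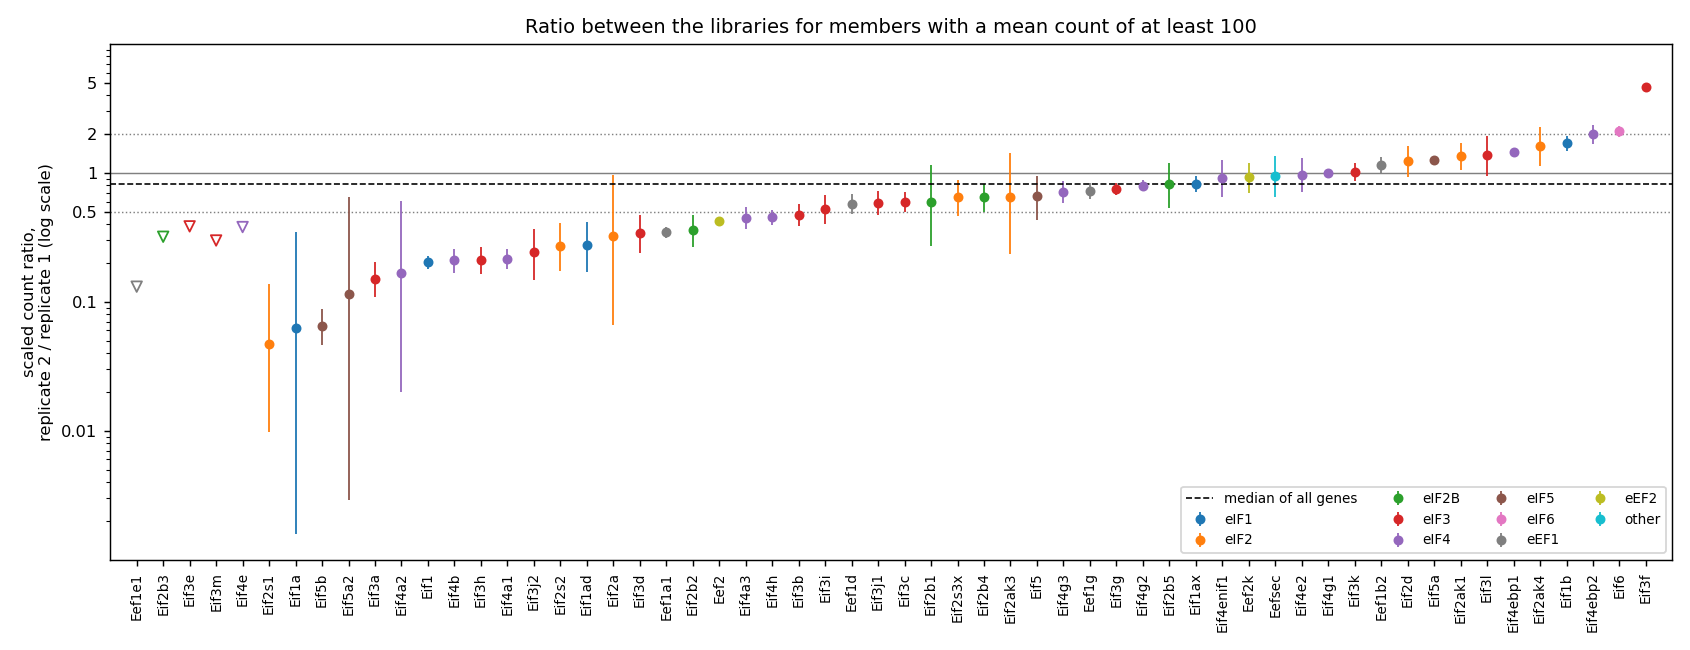
Scaled count ratio of replicate 2 to replicate 1 on a log axis for the 58 genes averaging at least 100 counts, coloured by factor, with exact 95% intervals for counting error; open triangles are upper limits for 5 genes at 0 counts in replicate 2, dotted lines mark 2-fold and the dashed line the median of all genes. Eif3f stood alone at 4.64, and Eif2s1, Eif1a and Eif5b were the lowest with counts in both.

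The lower genes included central parts of initiation. Eif2s1 had a ratio of 0.0471 (95% interval 0.00970 to 0.138). Eif1a, with 400 counts and then 1, had 0.0627 (0.00158 to 0.351), and Eif5b, with 15396 and then 40, had 0.0651 (0.0465 to 0.0887). Of these only Eif5b had enough counts in replicate 2 for a narrow interval. Eif5a2 followed at 0.116 (0.00291 to 0.650) and Eif3a at 0.151 (0.109 to 0.204). Other genes of high count in this direction included Eif1 at 0.202 (0.179 to 0.227), Eif4b at 0.210 (0.168 to 0.258), Eif4a1 at 0.215 (0.178 to 0.257), Eef1a1 at 0.345 (0.311 to 0.383), Eef2 at 0.421 (0.405 to 0.439) and Eif4h at 0.452 (0.396 to 0.513). Eif3b at 0.475 was just past the 2-fold limit, and Eif3i at 0.526 just short of it.

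A count of 0 in replicate 2 was seen for 5 of the 58 genes, against 4.48% of all genes that met the same count limit. With replicate 2 set at its floor of 3 counts, Eef1e1 (707 counts in replicate 1) would be 9.40-fold lower and Eif3m (311) 4.14-fold. On the same basis Eif2b3 (291) would be 3.87-fold, Eif4e (245) 3.26-fold and Eif3e (242) 3.22-fold lower. The exact upper limits of the ratio, for counting error in both libraries, were 0.131, 0.299, 0.320, 0.380 and 0.385 in this order. These limits allow smaller differences than the fold values. Such genes met the count limit through replicate 1 alone, so the filter fixed their direction. Eif3m shared 37.3% of its windows with other genes, so its count may be divided.

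The genes at the upper end were Eif3f, with 31576 and 5844 counts and a ratio of 4.64 (95% interval 4.51 to 4.77), and Eif6, with 5045 and 422 counts and 2.10 (1.89 to 2.32). Eif4ebp2 reached 2.00 (1.68 to 2.36), just under the limit, Eif1b 1.70 (1.49 to 1.93) and Eif2ak4 1.62 (1.12 to 2.27). Eif4ebp1 had 1.45 (1.38 to 1.52) and Eif5a 1.25 (1.22 to 1.29), which became 1.07 and 0.924 by total counts, so that of Eif5a changed direction. Eif4ebp1 and Eif4ebp2 thus stood in the upper part of the order, and the scaffold Eif4g1, at 0.991 (0.933 to 1.05), near the middle. Eif3f came entirely from Eif3f-201, a coding form of 2514 bases, in both libraries, and shared no 50-base window with another gene. Of the 26 lower genes, 10 were left out and 16 remained when genes with over 10% shared windows were set aside; 45 were then counted, with 2 higher and a median log2 ratio of -0.61. The share that was lower was then 35.6%, near the 33.8% of all genes. Shared windows were not examined for the other genes, so the 2 shares are not like for like.

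With a filter on CPM the background changed more than the members' share did, and both moved with the scaling. Among genes with at least 50 CPM on average, 29 members remained, of which 12 (41.4%) were at least 2-fold lower, against 15.8% of all such genes, and 2 higher, against 26.4%. The median log2 ratio was -0.75 for these members and 0.37 for all such genes. With libraries scaled by total counts instead of TMM, all ratios shifted down, and the median log2 ratio of all genes fell by 0.44, to -0.74. By that scale 35 of 58 members (60.3%) were lower and 1 higher, with background shares of 43.5% and 7.31%. With a trend on gene length removed, 25 members were at least 2-fold lower, against 32% of all genes, and 4 higher, against 16.9%.

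Short and non-coding forms set the TPM of several members. Among members with 2 or more annotated forms and at least 5 TPM on average, 31 could be compared, and 19 had the same dominant transcript in both libraries (61.3%, exact 95% interval 42.2 to 78.2), against 66.2% of 4695 genes. Among coding transcripts alone it was 17 of 23 members (73.9%), against 70.8%. The dominant form was annotated as other than coding for 11 of the 31 members in replicate 1 and 10 of the 31 in replicate 2. Eif2b4, whose leading forms had no type, was not counted among these. These shares were not far above the 28.1% and 30.9% of all genes. For 8 members it was so in both libraries, and the like share over all genes was not computed. Coding transcripts of all members summed to 8474 TPM in replicate 1 and 8478 in replicate 2, closer than the sums over all forms. Opposite shifts lay behind this: coding sums were 6577 and 7702 TPM for initiation genes and 1888 and 768 for elongation genes. The short coding form Eif4g1-220 alone had 5.82 and 661 TPM.

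**Figure D4:**
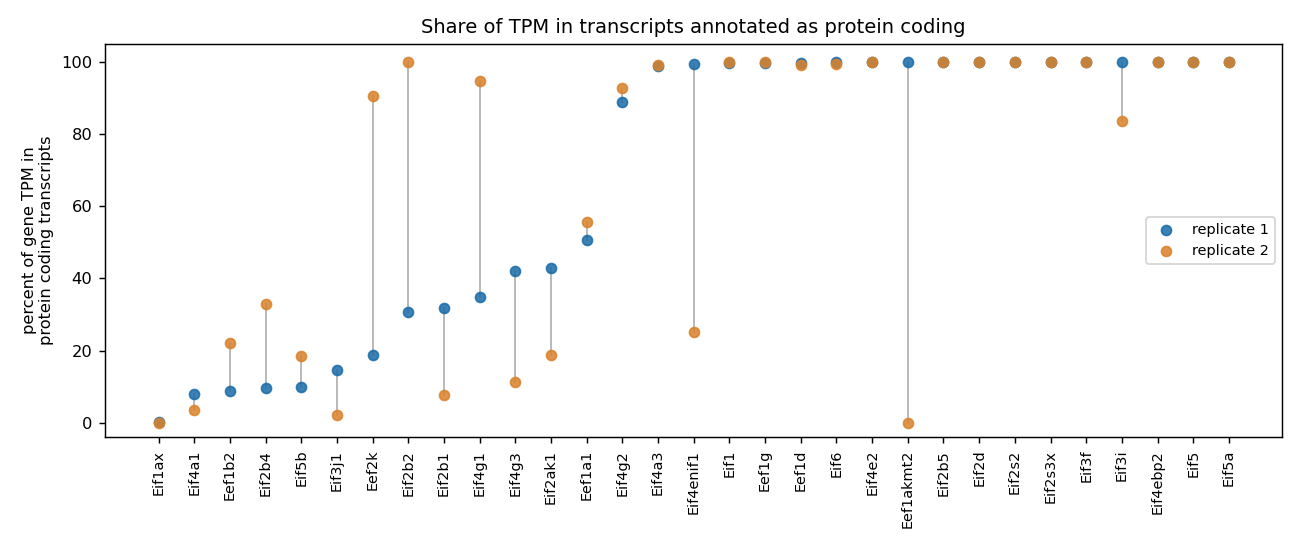
Percent of each gene's TPM in transcripts annotated as protein coding, in replicate 1 (blue) and replicate 2 (orange), for the 31 genes compared, ordered by replicate 1. Eif1ax lay at 0.319% and 0%, and Eef2k moved from 18.9% to 90.5%.

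For several genes the level per length and the count gave different pictures. TPM was higher and the scaled count lower in replicate 2 for 4 of the members compared by count, Eif3j1, Eif4g1, Eif4g3 and Eif4enif1, and the opposite held for Eif3k and Eef1b2. Eef2k-206, a retained intron form of 800 bases, took 81.1% of the TPM in replicate 1, and Eef2k-201, the coding form of 6349 bases, took 90.3% in replicate 2. Its effective length rose with this from 1109 to 5668 bases, so TPM fell while the scaled count hardly differed. For Eif4g1 a short form gained instead: Eif4g1-220, a coding fragment of 668 bases, took 2.59% in replicate 1 and 88.3% in replicate 2. In replicate 2, Eif4g3-207, a processed transcript of 489 bases with no count in replicate 1, took 85.3% of the Eif4g3 TPM, and Eif4enif1-208, a retained intron form of 405 bases with 8 counts, took 75.0% of the Eif4enif1 TPM. Eif6-204, of 373 bases, took 75.3% and 97.1%, and Eif4g2-203, of 742 bases, 85.6% and 90.9%. Eif5b-202, a retained intron form of 5788 bases, took 90.1% and 81.6% of the Eif5b TPM. Eif5a, by contrast, was carried by coding forms, with Eif5a-210 at 50.2% and 20.5% and Eif5a-213 at 42.1% and 47.7%. For a shallow library the split among forms rests on few fragments, so these shares have no interval.

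Genes that act with these factors were examined as a list of 41, of which 40 reached a mean of 1 TPM. Past the 2-fold limit, 7 of the 36 with enough counts were higher in replicate 2 (19.4%, against 15.7% of all genes) and 14 were lower (38.9%, against 33.8%). These shares were near the background, and the median log2 ratio was -0.46 for the list and -0.30 for all genes. Those higher included Rps6kb2, an S6 kinase, with 104 and 505 TPM (ratio 5.71), Mknk2, the kinase that phosphorylates eIF4E, with 455 and 1025 (2.67), Gspt1, the release factor eRF3, with 75.2 and 161 (2.56), and Pabpc1, the poly(A)-binding protein, with 1542 and 2787 (2.14). The eIF4A inhibitor Pdcd4 had 21.2 and 2.60 TPM (0.126), and the helicases Ddx3x (0.0737) and Dhx29 (0.166) were lower too. Of the mitochondrial translation factors, 4 of 6 were at least 2-fold lower, against 33.8% of all genes, but Mtif2 had 0 counts in replicate 2 and Mtif3 and Gfm1 had 3 each. In the eIF2 stress arm, Ppp1r15a, which brings the phosphatase to eIF2, had 347 and 838 TPM (1.49), Atf4 had 457 and 288 (0.741), and Ddit3 had 165 and 34.8 (0.248).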

How the data were processed

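Polyadenylated RNA of 2 megakaryocyte libraries was sequenced in paired end mode, per the labels. The authors deposited expected counts (estimated fragments per gene or transcript, which need not be whole) and TPM, per the file headers, as maximum likelihood values and posterior means; assembly mm10 and annotation GENCODE M4 are given in the deposited file lists. Which aligner and quantifier were used is not given in the sources used here. Symbols and positions came from GENCODE M21 (GRCm38), matched by Ensembl identifier for 42462 of 43346 genes; of 332 member transcripts, 326 had a type. Rows of numeric identifiers and added controls were left out.

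Expected counts, deposited by the authors, were rounded, and TMM factors (1.16 and 0.859) were computed over genes averaging 10 or more counts with edgeR 4.0.16 (R 4.3.3). Ratios (replicate 2 over replicate 1) were called past 2-fold for genes averaging 100 or more counts. Exact 95% intervals cover counting error only, because each side is a single library. No molecular identifiers mark independent molecules, so copies of the same molecule may be counted more than once and the intervals may be too narrow. On simulated counts with 4-fold changes in 200 genes, 178 of 181 changed genes that met the count limit were called, and 71 of 7521 unchanged ones. The simulation assumed little variation between libraries beyond counting error. In the data 33.8% of genes were at least 2-fold lower and 15.7% higher, so the simulated rates do not carry over to them. Detection was a mean of at least 1 TPM. Alternatives were DESeq2 1.42.0 size factors, total counts, other filters, removal of GC and length trends, posterior mean TPM and, chosen after seeing the data, coding transcripts only and leaving out members with over 10% of 50-base windows shared. Paralogs were compared by identity of their coding bases, since protein sequences were not used here. Other steps used Python 3.11.15, pandas 2.3.3, scipy 1.17.1 and Biopython 1.88. Start windows came from RefSeq tables, which held 51 members.

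The members and lists were chosen with earlier results of these data known. Every member could be named. Full values were given for the highest and lowest of each factor, the 10 highest, the 5 largest and 5 smallest ratios, genes at 0 and the paralog sets. Lists were other translation genes, ribosomal protein genes and markers of 4 cell types.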

Additional observations from a re-analysis of the deposited data

Results flagged for a closer look

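Genes left out by the naming rule also carried fragments. Eif2ak2, the kinase activated by double-stranded RNA, had 339 counts in replicate 1, above the 3 that a count of 0 allows, and 1 count in replicate 2. Eif2s3y, the Y-linked gamma subunit of eIF2, had 40 counts in replicate 1 and none in replicate 2. Eif4a-ps4, a processed pseudogene that shares sequence with Eif4a1, had 84.3 estimated counts in replicate 1 and none in replicate 2. There were no control samples to set these against.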

How the results depend on the processing

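With 2 libraries in 1 group, each value rests on 2 libraries, and replicate 2 sets the precision: a gene at 0 there could hold up to 1.32 CPM. No paired analysis was possible because there was no second group. With posterior mean TPM the members summed to 8654 instead of 10015 TPM, eIF4 to 2297 instead of 2660 and eIF5 to 1799 instead of 2134, each a mean of both libraries; from coding transcripts alone the members summed to 8476. The 26 genes at least 2-fold lower became 12 of 29 (41.4%, against 15.8% of all such genes) with at least 50 CPM. Without members that share windows they became 16 of 45 (35.6%), near the 33.8% of all genes, which were not filtered in this way. The 2 genes at least 2-fold higher became 1 with total counts and 4 with a length trend removed; the cause was not tested. Members with a pyrimidine run rose from 3 to 14 with the wider start, which accepts more positions. Of single genes, DESeq2 size factors moved no ratio beyond its interval in 53, removal of a GC trend moved 17 of 53 and total counts 32 of 53, and posterior mean TPM moved 11 of 64 levels by more than 1 SD. With the GC trend removed, single ratios moved both ways. Eif3f had a ratio of 6.05 and Eef2 0.338, both further from 1. Eif2s1 had 0.0759, Eif5b 0.104 and Eif3a 0.243, each nearer to 1. Eif6 had 1.94 and Eif2ak4 2.10. Still 26 members were at least 2-fold lower, and the median log2 ratio was -0.88 for the members and -0.24 for all genes.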
